A study of Mus musculus with 3 samples.

Results

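Microglial cells of the deposited cluster numbered 0 were compared between IL-33-injected mice with floxed alleles of the IL-33 receptor and a microglial Cre (cKO IL-33) and vehicle-injected control mice (WT vehicle). Only cells with the deposited cell-cycle call G1 were taken, which gave 1712 of the 7598 deposited cells. Of these, 926 came from the cKO IL-33 library (34.5% of its 2687 cells) and 786 from the WT vehicle library (29.0% of its 2709 cells). The comparison bears on what differs from vehicle when IL-33 is given to mice whose microglial receptor is targeted. The libraries differ in genotype as well as injection, so it reads both together. Raw transcript counts (unique molecular identifiers, UMIs) were summed over the cells of each library and scaled to 1000000 UMIs of autosomal genes (CPM).

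The study profiled CD45+ leukocytes, sorted from mouse thalamus 4 hours after an intracerebroventricular (i.c.v.) injection, by droplet single-cell RNA sequencing in 3 libraries. The cKO IL-33 mice were Cx3cr1-creER heterozygous with homozygous floxed ST2 and received IL-33. The WT vehicle mice were Cx3cr1-creER heterozygous and received vehicle, so the Cre allele is common to both libraries while the floxed alleles and the cytokine are not. A WT IL-33 library, from Cx3cr1-creER heterozygous mice given IL-33, holds 84 cells in cluster 0 and G1 (3.81% of its 2202 cells), and its values are printed only for level. No vehicle-injected library with floxed ST2 was analysed here. Cx3cr1-creER is an inducible recombinase that acts in microglia and in other cells expressing the fractalkine receptor. The sources used here give neither the age of the mice, nor the number of animals per library, nor how the recombinase was induced. As each group is 1 library, there is no replicate error and no test. All intervals in parentheses are 95% intervals that cover counting error only.

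IL-33 is an alarmin of the IL-1 family, held in the nucleus of brain glia and released on damage or activity. It binds ST2, encoded by Il1rl1, which pairs with the co-receptor chain encoded by Il1rap and signals through MyD88 and IRAK kinases to NF-kB and MAP kinases. Microglia are the resident macrophages of the brain. They also respond to systemic signals such as glucocorticoids, steroid hormones of the adrenal gland whose receptor switches on genes including Fkbp5, Tsc22d3, Sgk1, Per1, Ddit4 and Zbtb16.

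The cKO IL-33 sum held 5535806 autosomal UMIs, the WT vehicle sum 4583360 and the WT IL-33 sum 291531. Median depth per cell was 5016.5 UMIs in cKO IL-33, 5308.5 in WT vehicle and 3354 in WT IL-33. The median mitochondrial share was 2.46%, 2.93% and 1.94% and the median ribosomal share 13.8%, 15.9% and 11.9%, in the same order. By the deposited sex call, 910 of the 926 cKO IL-33 cells were female and 780 of the 786 WT vehicle cells male. Sex, genotype and injection therefore change together between the libraries and cannot be told apart. WT IL-33 held 54 female-called and 30 male-called cells. No barcode was shared between the cKO IL-33 and WT vehicle cells compared.

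The cells carried a microglial profile. All 8 microglial markers were at 50 CPM or more in both libraries, and their sum was 22429, 21522 and 20293 CPM in cKO IL-33, WT vehicle and WT IL-33. After each cell was thinned to 3000 UMIs, P2ry12, a purinergic receptor gene of resting microglia, had a UMI in 100% against 99.9% of cells, cKO IL-33 against WT vehicle. Tmem119, a microglial membrane protein gene, was seen in 98.3% against 96.5%, and without thinning in 99.9% and 99.5%. Markers of border-associated macrophages summed to 25.5, 37.5 and 13.7 CPM in the same order of libraries. T cell markers summed to 1.08, 0.655 and 0 CPM and mast cell markers to 0 in each library, with 7 of 7 at 0. Neuron markers summed to 2.35, 3.05 and 0 CPM, choroid plexus markers to 0.361, 0.655 and 0 CPM and erythroid markers to 0, 0.655 and 0 CPM. Markers of natural killer and innate lymphoid cells summed to 6.86, 8.73 and 6.86 CPM, with 6 of 8 at 0 in both libraries compared. The larger sums each rested on 1 or 2 genes that these cells carried: 170.3, 128 and 182 CPM for neutrophil markers (6 of 8 at 0), 136, 123 and 446 CPM for dendritic cell markers (4 of 8 at 0), 259, 302 and 278 CPM for B cell markers, 57.1, 56.5 and 58.3 CPM for oligodendrocyte markers and 21.9, 17.7 and 13.7 CPM for vascular markers. Monocyte markers, at 34.3, 67.2 and 51.5 CPM, and astrocyte markers, at 286, 149.9 and 250.4 CPM, moved with the comparison through Plac8 and Slc1a3. Their part in those genes' results was not tested.

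Il1rl1, the targeted gene (chromosome 1, 40429570 to 40465415, plus strand, GRCm38), had 66 UMIs in cKO IL-33, 59 in WT vehicle and 2 in WT IL-33. This is 11.9 CPM in cKO IL-33, 12.9 CPM in WT vehicle and 6.86 CPM in WT IL-33, and the ratio of cKO IL-33 to WT vehicle was 0.926 (0.642 to 1.34). The receptor transcript was thus not lower in the targeted library beyond counting error. Which exons the floxed alleles remove is not known from the labels, and tags near the 3' end may come from outside them. These counts are therefore no check of the genotype. Il1rap had 31 UMIs in cKO IL-33, 21 in WT vehicle and 2 in WT IL-33, and Il33 itself 0 UMIs in cKO IL-33, 1 in WT vehicle and 0 in WT IL-33.

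Most genes that mark the IL-33 response of control microglia had few UMIs in these cKO IL-33 cells. They were read here in cluster 0 and G1, which held 3.81% of the WT IL-33 cells, and responding cells may lie in other clusters. Some of these genes are also given for clusters 2 and 3 below, where Ccl4 lay above vehicle. Il12b, a subunit of the cytokine IL-12, had 1, 1 and 6 UMIs in cKO IL-33, WT vehicle and WT IL-33, although the WT IL-33 sum is far smaller than the others. Il1b, encoding interleukin 1 beta, had 4, 0 and 37 UMIs, and Tnf, encoding tumour necrosis factor, 14, 12 and 32 UMIs. The Tnf counts of cKO IL-33 and WT vehicle were close. The chemokine gene Ccl22, the cholesterol hydroxylase gene Ch25h, the scavenger receptor gene Marco and the chemokine receptor gene Ccr7 had 0 UMIs in both. Those 4 genes had 0, 0 and 11 UMIs (Ccl22), 0, 0 and 7 UMIs (Ch25h), 0, 0 and 15 UMIs (Marco) and 0, 0 and 3 UMIs (Ccr7), in the order cKO IL-33, WT vehicle and WT IL-33. Tlr2, a receptor for bacterial lipoproteins, was at 49.9 CPM in cKO IL-33, 55.0 CPM in WT vehicle and 418 CPM in WT IL-33, with a ratio to vehicle of 0.907 (0.762 to 1.08). Cd14, the lipopolysaccharide co-receptor, was at 322 CPM in cKO IL-33, 252 CPM in WT vehicle and 912 CPM in WT IL-33, 1.28-fold (1.18 to 1.38) above vehicle. Nfkbiz, an inhibitor and modifier of NF-kB, had 70, 55 and 50 UMIs and a ratio of 1.05 (0.730 to 1.53), and Tnfaip2, an NF-kB target, 32, 23 and 32 UMIs and 1.15 (0.653 to 2.06).

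The remaining genes of that response were sparse here. Cd69, a leukocyte activation marker, had 1, 1 and 4 UMIs, Saa3, an acute-phase gene, 5, 2 and 0 UMIs, Il1rn, the IL-1 receptor antagonist, 2, 0 and 0 UMIs and Cxcl13, a B cell attractant, 0 UMIs in each library. Gadd45b, a stress-induced NF-kB target, had 6, 0 and 5 UMIs. The chemokine gene Ccl4 had 61, 37 and 47 UMIs, with a ratio of 1.36 (0.893 to 2.11), and Ccl3, another chemokine, 103, 30 and 50 UMIs. Ccl3 was thus 2.84-fold (1.88 to 4.42) higher in cKO IL-33 than in WT vehicle, at 18.6, 6.55 and 172 CPM. Its level stayed below the minimum of 50 CPM used for counting genes. The log2 ratio of Ccl3 was 1.38, but -0.57 in the 221 cKO IL-33 and 161 WT vehicle cells with fewer than 2 UMIs over the markers of other leukocytes. No interval was taken for the second value, so whether the sign change exceeds counting error was not tested. That setting counts all 63 markers, some of which these cells carry, and drops most cells. With only the 57 markers below 10 CPM in both compared libraries counted (906 and 767 cells kept), the sign of Ccl3 did not change. WT IL-33 and cKO IL-33 are each compared with the same vehicle cells, so the 2 contrasts are not independent.

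Across the transcriptome, cKO IL-33 and WT vehicle cells of this cluster were close. Both were taken from the same expression-based cluster and from G1 calls, which limits how far they could differ. Genes were counted as higher or lower where they reached 50 CPM in either library and their CPM were at least 1.5-fold apart. Of 3570 such autosomal genes, 58 were higher in cKO IL-33 (1.62%) and 11 lower (0.308%), and 79.9% lay within 1.2-fold. With scaling by trimmed mean of M-values (TMM) the counts were 43 and 15. At 2-fold the counts were 10 (0.28%) and 2 (0.056%). The 69 genes comprised 63 protein-coding genes, 4 long intergenic noncoding RNAs, 1 processed transcript and 1 other RNA. Most were of low level. Below a mean of 100 CPM, 37 of 1858 genes were higher and 5 lower, between 100 and 300 CPM 20 and 6 of 1271, between 300 and 1000 CPM 1 and 0 of 307, and above that 0 of 134. The genes above 1000 CPM had a median log2 ratio of -0.17, against 0.02 for all 3570. Just inside the threshold lay Rilpl1 (1.502) and Chn2 (1.504), and just outside Tagap (1.499) and B3galnt1 (1.496). On the lower side, Cbfa2t3 (1.505) lay just inside and Rps27rt (1.490) just outside.

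**Figure D1:**
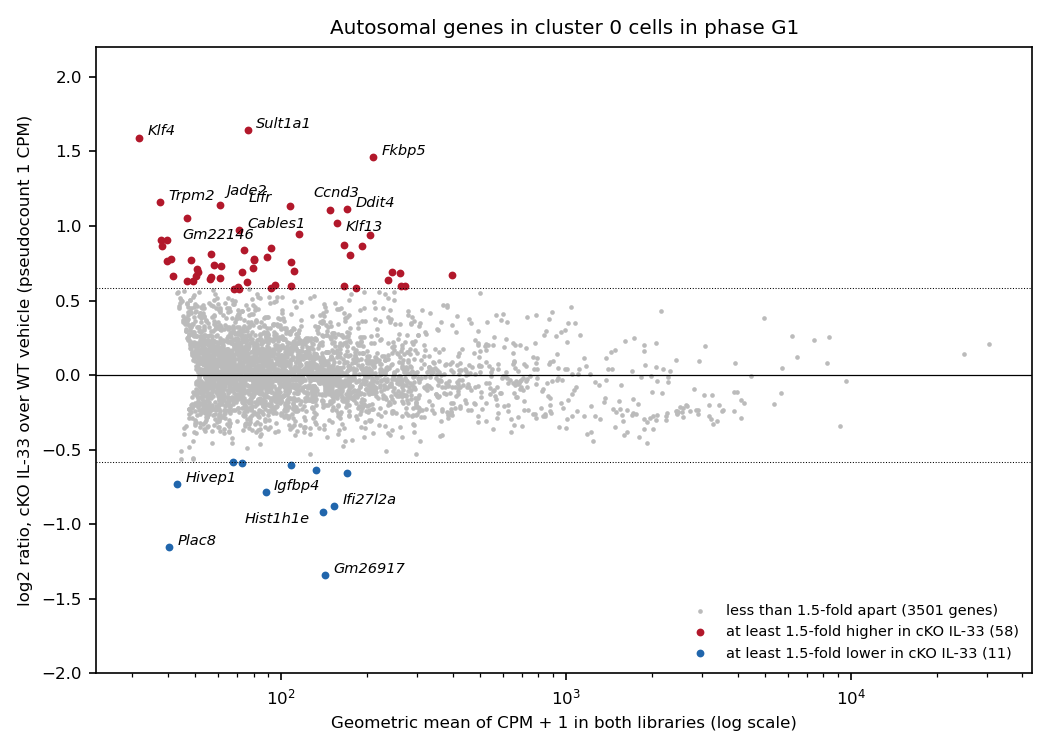
Each point is 1 of 3570 autosomal genes that reached 50 CPM in either library, with the geometric mean of its CPM on a log axis and the log2 ratio of cKO IL-33 over WT vehicle (pseudocount 1 CPM) on the other. Dotted lines mark 1.5-fold, past which lie 58 genes above and 11 below, most of them under 300 CPM.

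Genes known to be switched on by glucocorticoids held 2 of the 10 genes past 2-fold on the higher side. Fkbp5, a co-chaperone that lowers the hormone affinity of the glucocorticoid receptor (chromosome 17, 28399094 to 28517527, minus strand, GRCm38), had 1925 UMIs in cKO IL-33, 575 in WT vehicle and 103 in WT IL-33. This is 348 CPM in cKO IL-33, 125 CPM in WT vehicle and 353 CPM in WT IL-33, a 2.77-fold (2.52 to 3.05) higher level in cKO IL-33 than in WT vehicle. The intervals of the cKO IL-33 and WT IL-33 levels overlapped, and both lay above vehicle. Ddit4, also called REDD1, restrains mTORC1 under stress (chromosome 10, 59949669 to 59951834, minus strand) and was at 249 CPM in cKO IL-33, 115 CPM in WT vehicle and 316 CPM in WT IL-33. Its ratio to vehicle was 2.17-fold (1.96 to 2.40). The intervals of the IL-33 libraries again overlapped, with the higher point value in WT IL-33. Overlap of 2 levels does not bound their ratio.

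The glucocorticoid list had 19 autosomal members, of which 7 reached 50 CPM. Of these 7, 2 were higher (Fkbp5 and Ddit4) and 0 lower, beside 1.62% and 0.308% of all 3570 genes. The median log2 ratio of the 11 members at 10 CPM or more was 0.44, against 0.06 for all 8124 autosomal genes at that level, with 9 members above 0 and 2 below. Of those 8124 genes, 59.95% lay above 0. Sgk1, a kinase that controls ion transport, was at 364 CPM in cKO IL-33, 268 CPM in WT vehicle and 491 CPM in WT IL-33, a ratio of 1.36 (1.26 to 1.46). Mt1, a metal-binding metallothionein, was at 185 CPM in cKO IL-33, 136 CPM in WT vehicle and 168 CPM in WT IL-33, a ratio of 1.36 (1.23 to 1.51). Both lay on the higher side without reaching 1.5-fold. Nfkbia, the inhibitor of NF-kB, was at 173 CPM in cKO IL-33, 149 CPM in WT vehicle and 693 CPM in WT IL-33, a ratio of 1.16 (1.05 to 1.28). The members below 0 were Cdkn1a, a cell cycle inhibitor with 112 UMIs against 174, a ratio of 0.533 (0.416 to 0.680), and Errfi1, an inhibitor of the EGF receptor, with 117 UMIs against 100, a ratio of 0.969 (0.735 to 1.28). Dusp1, a MAP kinase phosphatase below 10 CPM, was at 4.88 CPM against 6.33 CPM, with an interval that includes 1 (0.439 to 1.35).

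Further members below 50 CPM, singled out after their values were seen, lay on the higher side. Per1, a circadian clock gene with a glucocorticoid-responsive promoter, was at 40.3 CPM in cKO IL-33, 23.1 CPM in WT vehicle and 48.0 CPM in WT IL-33, 1.74-fold (1.38 to 2.22). Irs2, an insulin receptor substrate, was at 39.0 CPM in cKO IL-33, 21.6 CPM in WT vehicle and 37.7 CPM in WT IL-33, 1.81-fold (1.42 to 2.32). Zbtb16, a zinc finger factor, had 30 UMIs against 1 in WT vehicle, a ratio of 24.8 (4.13 to 1013). Klf9, a Krüppel-like factor, had 17 UMIs against 4 and Mt2, another metallothionein, 20 UMIs against 5. These counts are small, and the intervals of the ratios, 1.15 to 14.4 for Klf9 and 1.21 to 11.3 for Mt2, are correspondingly wide. Tsc22d3, also called GILZ, is X-linked and so outside the autosomal comparison. It was at 108 CPM in cKO IL-33, 66.8 CPM in WT vehicle and 120.1 CPM in WT IL-33, 1.61-fold (1.40 to 1.86). Nr3c1, the glucocorticoid receptor gene, was at 184 CPM against 179 CPM, a ratio of 1.03 (0.938 to 1.13). The interval of this ratio includes 1.

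Among genes at 50 CPM or more, the highest ratio belonged to Sult1a1, a phenol sulfotransferase (chromosome 7, 126672865 to 126676432, minus strand), at 134 CPM in cKO IL-33, 42.1 CPM in WT vehicle and 178 CPM in WT IL-33, 3.17-fold (2.71 to 3.74) above vehicle. Klf4, a Krüppel-like transcription factor of macrophages and of immediate early responses (chromosome 4, 55527143 to 55532466, minus strand), was at 54.0 CPM in cKO IL-33, 17.2 CPM in WT vehicle and 61.7 CPM in WT IL-33, 3.13-fold (2.44 to 4.07). For both genes each IL-33 library lay above vehicle, although the WT IL-33 value of Klf4 rests on 18 UMIs.

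The start-site windows of the leading genes are shown so that the shared and unshared letters can be seen. They are the 250 bases before the RefSeq transcription start on GRCm38.p6, all on the minus strand and written 5′ to 3′. Capitals mark matches to 3 short motifs on either strand. The steroid receptor half-site is AGAACA, which reads TGTTCT on the other strand. An E-box is spelled CACGTG on both strands. The CCAAT box reads ATTGG on the other strand.
Sult1a1, chr7:126676419-126676668: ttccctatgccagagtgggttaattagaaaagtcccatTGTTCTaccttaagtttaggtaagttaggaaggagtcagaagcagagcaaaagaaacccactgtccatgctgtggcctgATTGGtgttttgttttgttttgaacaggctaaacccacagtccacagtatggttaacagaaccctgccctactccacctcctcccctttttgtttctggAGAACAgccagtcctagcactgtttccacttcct
Klf4, chr4:55532476-55532725: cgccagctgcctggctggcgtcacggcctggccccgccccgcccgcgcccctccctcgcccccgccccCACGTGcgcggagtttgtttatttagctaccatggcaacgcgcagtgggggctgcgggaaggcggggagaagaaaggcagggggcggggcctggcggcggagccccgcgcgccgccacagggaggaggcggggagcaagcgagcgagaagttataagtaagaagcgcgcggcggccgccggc
Fkbp5, chr17:28486150-28486399: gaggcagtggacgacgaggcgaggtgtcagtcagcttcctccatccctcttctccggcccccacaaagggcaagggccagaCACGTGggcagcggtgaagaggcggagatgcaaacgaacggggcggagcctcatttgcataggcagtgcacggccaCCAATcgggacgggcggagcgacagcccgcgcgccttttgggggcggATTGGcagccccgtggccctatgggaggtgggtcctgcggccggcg
Ddit4, chr10:59951771-59952020: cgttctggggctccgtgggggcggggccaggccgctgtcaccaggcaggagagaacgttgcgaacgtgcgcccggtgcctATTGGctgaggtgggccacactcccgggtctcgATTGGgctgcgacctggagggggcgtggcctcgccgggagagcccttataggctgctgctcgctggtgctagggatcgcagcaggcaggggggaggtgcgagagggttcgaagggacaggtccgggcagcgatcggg
The Sult1a1 window holds half-sites 212 and 34 bases before the start. The Klf4 and Fkbp5 windows hold an E-box 182 and 169 bases before it. The Fkbp5 start in this table lies 31378 bases inside the GENCODE gene, so the annotations place the start differently.

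Of the 58 higher genes, 49 matched the RefSeq table by symbol. A gene was counted where any of its windows matched, so shares of genes and shares of windows are not in the same unit. The full palindrome, GNACA and TGTNC with 3 free bases between them, was found in 0 of the 49 genes. It was in 0.243% of the 2881 matched genes at 50 CPM or more and in 0.387% of all 32851 windows. The half-site was in 8 of the 49 (16.3%), in 16.1% of all windows and in 11.5% of the 2881 matched genes at 50 CPM or more. The E-box was in 4 (8.16%), against 6.02% and 11.1%, and the CCAAT box in 23 (46.9%), against 33.8% and 38.6%. AGAACA can overlap the palindrome. A match is a run of letters and not a shown binding site, and elements outside these windows were not read.

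**Figure D2:**
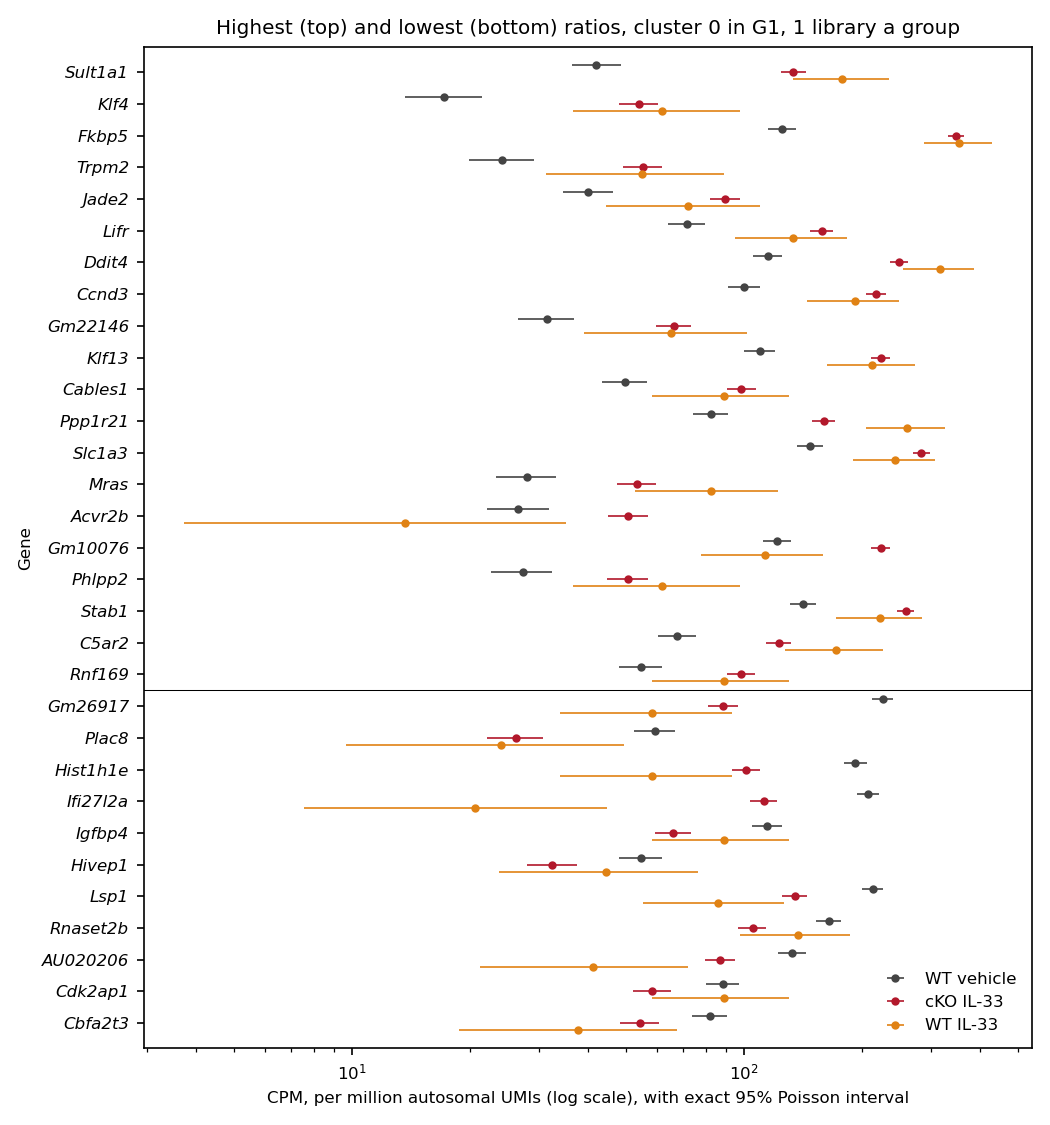
CPM (log axis) of the 20 genes of highest ratio and the 11 lower genes in cluster 0 G1 cells, for WT vehicle, cKO IL-33 and WT IL-33, with exact 95% Poisson intervals and 1 library a group. For Sult1a1 and Fkbp5 the cKO IL-33 and WT IL-33 points both lie above vehicle. For Acvr2b and Gm10076 the WT IL-33 point lies nearer vehicle.

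The next genes are ordered by known role, which was assigned after their values were seen and is no count over the 58. Some encode regulators of transcription and of the cell cycle. Klf13, a Krüppel-like repressor, was at 223 CPM in cKO IL-33, 109.7 CPM in WT vehicle and 213 CPM in WT IL-33, 2.04-fold (1.83 to 2.26). Jade2, a PHD-finger protein of histone-modifying complexes, was at 89.6 CPM in cKO IL-33, 40.1 CPM in WT vehicle and 72.0 CPM in WT IL-33, 2.23-fold (1.88 to 2.66). Cebpb, a transcription factor of inflammatory and emergency responses, was at 230.1 CPM in cKO IL-33, 132 CPM in WT vehicle and 497 CPM in WT IL-33, 1.75-fold (1.59 to 1.93). In Cebpb the WT IL-33 cells stood higher than the cKO IL-33 cells, unlike in Klf13 and Jade2. Ccnd3, cyclin D3, was at 217 CPM in cKO IL-33, 100.4 CPM in WT vehicle and 192 CPM in WT IL-33, 2.17-fold (1.94 to 2.42), and Cables1, which links cyclin-dependent and Abl kinases, was at 98.6 CPM in cKO IL-33, 49.7 CPM in WT vehicle and 89.2 CPM in WT IL-33, 1.98-fold (1.70 to 2.32). Rnf169, a ubiquitin-binding protein of the DNA break response, was at 98.5 CPM in cKO IL-33, 54.5 CPM in WT vehicle and 89.2 CPM in WT IL-33, 1.80-fold (1.55 to 2.10).

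Other higher genes encode receptors, channels and transporters. Lifr, the receptor chain for leukaemia inhibitory factor, was at 158 CPM in cKO IL-33, 71.6 CPM in WT vehicle and 134 CPM in WT IL-33, 2.21-fold (1.94 to 2.51). Trpm2, a calcium-permeable channel opened by oxidative stress, was at 55.3 CPM in cKO IL-33, 24.2 CPM in WT vehicle and 54.9 CPM in WT IL-33, 2.28-fold (1.83 to 2.86). Stab1, a macrophage receptor that takes up modified proteins, was at 259 CPM in cKO IL-33, 142 CPM in WT vehicle and 223 CPM in WT IL-33, 1.82-fold (1.66 to 2.004). For these 3 genes the IL-33 libraries overlapped in their intervals and stood above vehicle. C5ar2, a receptor for the complement fragment C5a, was at 123 CPM in cKO IL-33, 67.6 CPM in WT vehicle and 172 CPM in WT IL-33, 1.81-fold (1.58 to 2.08). Slc1a3, the glutamate transporter GLAST, was at 283 CPM in cKO IL-33, 147 CPM in WT vehicle and 244 CPM in WT IL-33, 1.92-fold (1.75 to 2.11). Acvr2b, an activin receptor, was at 50.8 CPM in cKO IL-33, 26.6 CPM in WT vehicle and 13.7 CPM in WT IL-33, 1.91-fold (1.54 to 2.38). Unlike in the others, the WT IL-33 point value of Acvr2b lay below vehicle. It rests on 4 UMIs, and its interval holds the vehicle value. The Slc1a3 difference was seen without the other astrocyte genes, 7 in number, which together gave 2.89 CPM against 2.40 CPM.

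Mras, Phlpp2, Ppp1r21 and a pair of noncoding genes were also among the highest 20. Mras, a small GTPase of the Ras family, was at 53.3 CPM in cKO IL-33, 27.9 CPM in WT vehicle and 82.3 CPM in WT IL-33, 1.91-fold (1.55 to 2.37). Phlpp2, a phosphatase that removes an activating phosphate from Akt, was at 50.6 CPM in cKO IL-33, 27.3 CPM in WT vehicle and 61.7 CPM in WT IL-33, 1.85-fold (1.497 to 2.31). Ppp1r21, an endosomal protein, was at 159.7 CPM in cKO IL-33, 82.5 CPM in WT vehicle and 261 CPM in WT IL-33, 1.94-fold (1.71 to 2.19). All 3 had their highest value in WT IL-33, within wide intervals for Mras and Phlpp2. The noncoding Gm10076 was at 223, 122 and 113 CPM, 1.83-fold (1.66 to 2.03), and Gm22146 at 66.3, 31.4 and 65.2 CPM, 2.11-fold (1.74 to 2.58), in the order cKO IL-33, WT vehicle and WT IL-33. Gm22146 (chromosome 17, 28446861 to 28447148, plus strand) lies inside Fkbp5 on the opposite strand, and the labels do not say whether counting used the strand, so its reads cannot be told apart from those of Fkbp5. Gm10076 may share reads with copies elsewhere in the genome and is uncertain.

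Several metabolic genes were past the threshold with smaller ratios. Hk2, hexokinase 2 of glycolysis, was at 335 CPM in cKO IL-33, 221 CPM in WT vehicle and 346 CPM in WT IL-33, 1.52-fold (1.41 to 1.64). Mylip, a ubiquitin ligase that lowers the LDL receptor, was at 323 CPM in cKO IL-33, 213 CPM in WT vehicle and 281 CPM in WT IL-33, 1.51-fold (1.40 to 1.64). Singled out after their values were seen, Pnpla2, a triglyceride lipase, was at 91.8 CPM against 56.5 CPM, Galc, a lysosomal galactosylceramidase, at 50.8 CPM against 29.5 CPM and Csad, an enzyme of taurine synthesis, at 104 CPM against 60.2 CPM. Their ratios were 1.62-fold, 1.72-fold and 1.72-fold. Far1, which makes fatty alcohols, was at 104 CPM against 60.2 CPM, Cept1, which makes phospholipids, at 78.4 CPM against 46.9 CPM and Tcn2, a vitamin B12 carrier, at 296 CPM against 189.8 CPM. Polg, the mitochondrial DNA polymerase, was at 63.9 CPM against 38.6 CPM, 1.66-fold.

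The 11 lower genes were of several kinds. Gm26917, a noncoding gene, was at 88.7 CPM in cKO IL-33, 226 CPM in WT vehicle and 58.3 CPM in WT IL-33, 2.55-fold (2.28 to 2.84) lower in cKO IL-33. A single cKO IL-33 cell gave 10.6% of its UMIs there, and copies elsewhere in the genome could share its reads. Plac8, a small cysteine-rich protein also used as a monocyte marker, was at 26.2 CPM in cKO IL-33, 59.3 CPM in WT vehicle and 24.0 CPM in WT IL-33, 2.27-fold (1.85 to 2.79) lower. The other 7 monocyte markers together gave 8.13 CPM against 7.85 CPM, with 3 and 4 of the 7 at 0. Hist1h1e, a linker histone gene, was at 101 CPM in cKO IL-33, 192 CPM in WT vehicle and 58.3 CPM in WT IL-33, 1.90-fold (1.71 to 2.11). Ifi27l2a, an interferon-inducible gene, was at 112 CPM in cKO IL-33, 207 CPM in WT vehicle and 20.6 CPM in WT IL-33, 1.84-fold (1.66 to 2.04). In these 4 genes WT IL-33 also lay below vehicle.

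Among the other lower genes, Igfbp4, a binding protein of insulin-like growth factors, was at 66.1 CPM in cKO IL-33, 115 CPM in WT vehicle and 89.2 CPM in WT IL-33, 1.74-fold (1.52 to 1.99). Lsp1, a leukocyte actin-binding protein, was at 135 CPM in cKO IL-33, 213 CPM in WT vehicle and 85.8 CPM in WT IL-33, 1.58-fold (1.44 to 1.74). Hivep1, a zinc finger protein that binds kB-like sites, was at 32.5 CPM in cKO IL-33, 54.5 CPM in WT vehicle and 44.6 CPM in WT IL-33, 1.68-fold (1.38 to 2.04). Lsp1 was lowest in WT IL-33, whereas the wide WT IL-33 intervals of Igfbp4 and Hivep1 held both other values. Rnaset2b, a ribonuclease with a near-identical copy that may share its reads, was 1.56-fold lower, and the noncoding AU020206 1.53-fold. Cdk2ap1, an inhibitor of cyclin-dependent kinase 2, was 1.51-fold lower, and Cbfa2t3, a transcriptional co-repressor, 1.505-fold.

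Gene lists were read by how many members at 50 CPM or more passed 1.5-fold and by the median log2 ratio of members at 10 CPM or more. For all genes that median was 0.06, and 1.62% of all 3570 genes were higher and 0.308% lower. Counts of members above or below 0 stand beside 59.95% of all 8124 genes at 10 CPM or more above 0. Of 7 NF-kB targets, genes downstream of the receptor's signalling, 0 were past the threshold on either side, and the median was -0.04. Sod2, mitochondrial superoxide dismutase, was at 49.7 CPM against 56.1 CPM and Icam1, an adhesion molecule, at 87.3 CPM against 79.4 CPM. The summed list was 1152, 1121 and 3235 CPM in cKO IL-33, WT vehicle and WT IL-33, with cKO IL-33 nearer vehicle. The IL-33 receptor pathway had 0 of 3 past the threshold and a median of 0.04, and cytokines and growth factors 0 of 4 and 0.17. Il1a, interleukin 1 alpha, was at 56.5 CPM against 49.96 CPM and Tgfb1, transforming growth factor beta 1, at 357 CPM against 349 CPM.

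Chemokines had a median of 0.41, with 1 of 3 members higher. This was Ccl9, a myeloid chemokine, at 139.6 CPM in cKO IL-33, 82.3 CPM in WT vehicle and 319 CPM in WT IL-33, 1.70-fold (1.499 to 1.93). A neighbouring gene, Ccl6, was at 92.9 CPM against 74.2 CPM. The monocyte attractant gene Ccl12 was at 346 CPM against 351 CPM. Members of lower level, chosen after their values were seen, were Ccl5 with 65 UMIs against 14 and Ccl2 with 61 UMIs against 25, beside the Ccl3 value above. The chemokine sum was 696, 594 and 2257 CPM in cKO IL-33, WT vehicle and WT IL-33, between the others but nearer vehicle. Without the cells that held 2 or more UMIs of other leukocyte markers the chemokine median was -0.03, a change of side that the Ccl3 value shared. The median kept its sign where only the 57 rare markers were counted.

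Immediate early genes had 1 of 9 higher, Klf4, and a median of 0.28, with 12 of 13 members above 0. Jun, a subunit of AP-1, was at 165 CPM against 120.4 CPM, a ratio of 1.37 (1.23 to 1.53). Junb, another subunit, was at 165 CPM against 135 CPM, a ratio of 1.22 (1.10 to 1.35), and Rhob, a small GTPase, at 832 CPM against 634 CPM, a ratio of 1.31 (1.25 to 1.37). Egr1, a zinc finger factor below 50 CPM named after its value was seen, had 84 UMIs against 14, 4.97-fold (2.80 to 9.48). Genes known to be induced by cell isolation had 0 of 11 past the threshold and a median of 0.18, and they hold many of the same members. Whether handling of the tissue moved with the library was not tested. Heat shock genes had 0 of 7 and a median of 0.07, with the chaperone genes Hsp90aa1 at 183 CPM against 206 CPM and Hspe1 at 231 CPM against 276 CPM.

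Few genes of microglial identity passed the threshold. Homeostatic genes had 0 of 19 past the threshold and a median of 0.10, with Selplg, a selectin ligand, at 2494 CPM against 1848 CPM, a ratio of 1.35 (1.31 to 1.39), and Olfml3, a secreted matrix protein, at 1098 CPM against 891 CPM, a ratio of 1.23 (1.18 to 1.28). Crybb1, a microglial crystallin gene, was at 939.5 CPM against 766 CPM and Mertk, a receptor for apoptotic cells, at 541 CPM against 441 CPM. Of the 19 members, 14 lay above 0 and 5 below. P2ry12 was among those below, at 3825 CPM against 4132 CPM, a ratio of 0.926 (0.908 to 0.944). Microglial transcription factors had 1 of 19 higher, Cebpb, and a median of 0.09. Cebpa and Runx1, which set myeloid identity, were at 113 CPM against 90.5 CPM and 296 CPM against 209 CPM. Disease-associated microglia genes had 0 of 10 and -0.04, with the lysosomal protease gene Ctsd at 5634 CPM against 4325 CPM and Apoe, apolipoprotein E, at 2926 CPM against 3672 CPM.

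Pattern recognition genes had 0 of 7 past the threshold and a median of 0.18. The double-stranded RNA receptor gene Tlr3 was at 93.6 CPM against 68.7 CPM, the inflammasome sensor gene Nlrp3 at 75.7 CPM against 55.2 CPM and the lectin gene Clec4a3 at 131 CPM against 95.1 CPM. Complement and phagocytosis genes had 1 of 16 higher, Stab1, and a median of 0.12. Gas6, which links dying cells to Mertk-type receptors, was at 151 CPM against 205 CPM, and Fcgr3, an antibody receptor, at 1062 CPM against 869 CPM. MHC class II genes had 0 of 6 and 0.03, with the invariant chain gene Cd74 at 56.5 CPM against 69.4 CPM. TGF-beta pathway genes had 0 of 13 and 0.06, with Smad7, an inhibitor of the pathway, at 292 CPM against 262 CPM.

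Interferon and translation genes lay on the lower side. Of 6 type I interferon genes 1 was lower, Ifi27l2a, and 0 higher. The list's median was -0.33, with 12 of 16 members below 0, and it was 0.04 in the 221 and 161 cells with fewer than 2 UMIs of other leukocyte markers. It stayed negative in the 906 and 767 cells with fewer than 2 UMIs of the rare markers. Bst2, the antiviral protein tetherin, was at 138 CPM against 193 CPM, 1.39-fold (1.26 to 1.54) lower. Irf9, a transcription factor of the interferon response, was at 57.6 CPM against 51.3 CPM. MHC class I genes, which interferon also raises, had 0 of 11 past the threshold and a median of -0.14. B2m, the light chain of class I molecules, was at 2469 CPM against 2835 CPM. H2-D1 was at 902 CPM against 1050.1 CPM and is uncertain, since class I genes have near-identical copies.

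Cytosolic ribosomal protein genes had 0 of 76 past the threshold, a median of -0.25 and 67 members below 0. Rps18 was at 1642 CPM against 2253 CPM, 1.37-fold (1.33 to 1.41) lower, Rpsa at 1556 CPM against 2073 CPM and Rps2 at 1067 CPM against 1448 CPM. Mitochondrially encoded genes had 0 of 13 and -0.19, nuclear genes of oxidative phosphorylation 0 of 42 and -0.13, and proteasome subunits 0 of 24 and -0.09. The ribosomal protein and mitochondrially encoded lists hold transcripts that are also counted in the ribosomal and mitochondrial shares per cell given above.

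Metabolic and signalling lists had few members past the threshold. Hypoxia and glucose genes had 1 of 12 higher, Hk2, and a median of 0.20, with Pkm, pyruvate kinase, at 145 CPM against 182 CPM. Genes of PI3K, Akt and mTOR had 0 of 12 and 0.16. Circadian clock genes had 0 of 4 and 0.13, with the clock gene Per3 at 53.5 CPM against 50.8 CPM. Iron genes had 0 of 8 and 0.15, lysosomal genes 0 of 24 and 0.02, and cholesterol genes 1 of 5 higher, Mylip, and -0.03. The integrated stress response had 0 of 3 and 0.07, and extracellular proteases and matrix 0 of 5 and -0.05. Of 7 cell cycle genes 1 was lower, Hist1h1e, and the median was -0.02, in cells chosen by their G1 call.

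**Figure D3:**
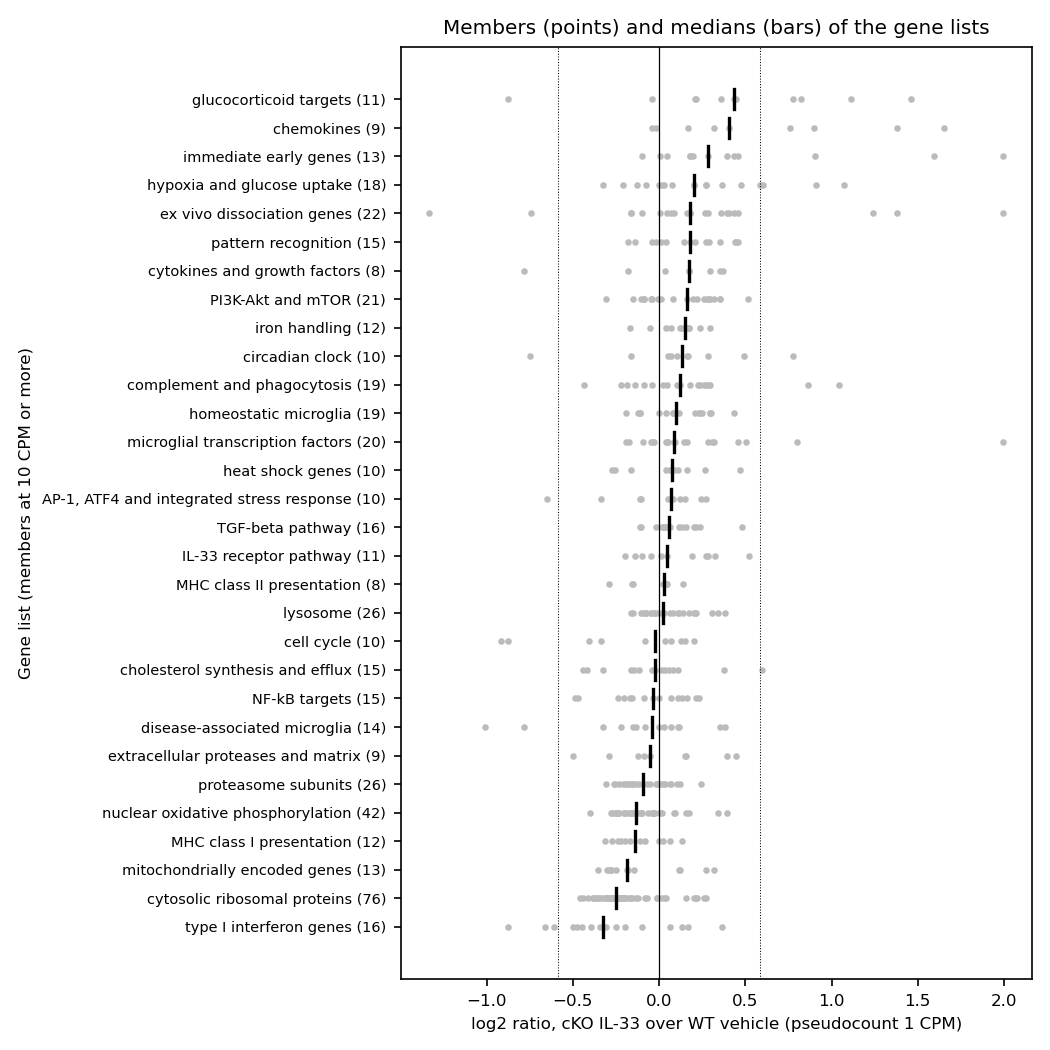
Each row is a gene list with the number of members at 10 CPM or more, each grey point 1 member's log2 ratio of cKO IL-33 over WT vehicle (pseudocount 1 CPM) and each bar the list's median. Dotted lines mark 1.5-fold, and the medians run from -0.33 for type I interferon genes to 0.44 for glucocorticoid targets.

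The leading genes, chosen by their summed UMIs in these same cells, also differed in the share of cells that held their transcript. The shares are therefore no independent reading, and their intervals do not cover the spread between animals. In cells thinned to 3000 UMIs (27 shallower cKO IL-33 and 22 shallower WT vehicle cells left out), Fkbp5 had a UMI in 59.4% (56.1 to 62.6) of cKO IL-33 and 25.9% (22.8 to 29.2) of WT vehicle cells. Without thinning the shares were 79.4% and 46.4%. At least 2 Fkbp5 UMIs were seen in 24.5% of thinned cKO IL-33 and 5.37% of thinned WT vehicle cells. Fkbp5 was thus seen in more cells, and more often with several UMIs, in cKO IL-33. Sult1a1 was seen in 28.9% (26.0 to 32.0) of cKO IL-33 and 10.9% (8.75 to 13.3) of WT vehicle cells, or 48.4% and 20.2% without thinning. Ddit4 was seen in 48.2% against 27.9% and Klf4 in 13.6% against 4.45% of thinned cells, cKO IL-33 against WT vehicle. Without thinning these were 65.8% and 42.7% for Ddit4 and 22.0% and 8.78% for Klf4.

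Further genes were read in the same way, cKO IL-33 against WT vehicle. Lifr was seen in 34.5% against 17.5%, Stab1 in 48.8% against 31.7%, Slc1a3 in 50.9% against 30.1%, Ccnd3 in 45.1% against 24.3% and Klf13 in 41.9% against 22.8% of thinned cells. Without thinning the pairs were 52.6% and 28.8%, 68.9% and 47.7%, 67.7% and 46.6%, 64.7% and 40.7% and 63.0% and 41.6%. Of the glucocorticoid genes, Tsc22d3 was seen in 26.9% against 14.7%, Sgk1 in 55.2% against 49.3% and Per1 in 10.6% against 6.41%, and unthinned in 42.2% and 28.5%, 74.1% and 66.3% and 19.98% and 12.3%. The intervals of Sgk1 overlapped. Zbtb16 had a UMI in 1.67% against 0% of thinned cells, or 2.81% and 0.127% unthinned. The 0 of 764 thinned vehicle cells allow a share of cells with a UMI of up to 0.393% by a floor of 3 counts, or 0.482% by the exact interval, and neither limits the share of cells expressing the gene. No cell type that should lack these genes was present among the cells to give a share from free RNA. The median number of genes per thinned cell was 1510 (cKO IL-33) and 1468 (vehicle).

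**Figure D4:**
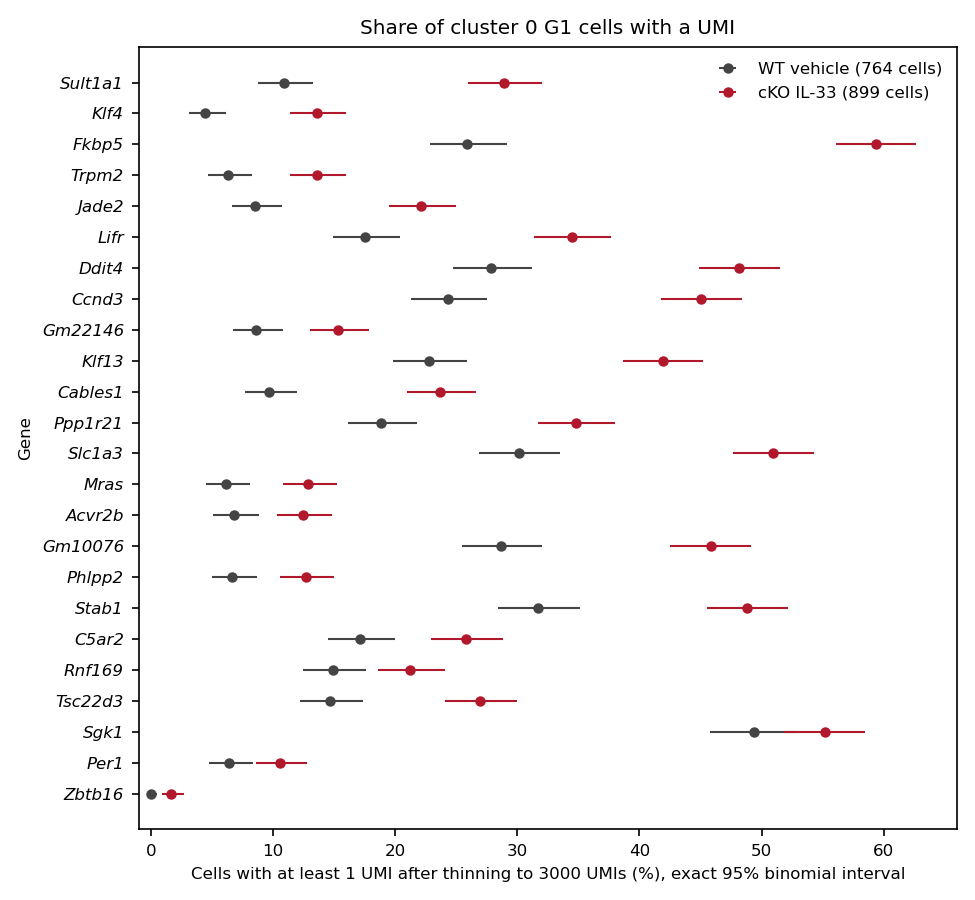
Share of cluster 0 G1 cells with at least 1 UMI of each gene after thinning to 3000 UMIs, for 899 cKO IL-33 and 764 WT vehicle cells, with exact 95% binomial intervals. Fkbp5 is seen in 59.4% against 25.9% of cells, while the intervals of Sgk1 overlap.

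The same libraries were read in G1 cells of clusters 2 and 3, the other large clusters that both hold. These comparisons use other cells of the same animals, so they are no replicates. Cluster 2 (523 cKO IL-33 and 333 WT vehicle cells) had 92 of 3881 genes higher (2.37%) and 21 lower (0.541%). Cluster 3 (221 and 308 cells) had 86 of 3658 higher (2.35%) and 36 lower (0.984%). Fewer cells stood behind these sums than in cluster 0, and their part in the larger counts was not tested. Fkbp5 was at 440.3 CPM against 149.9 CPM in cluster 2, 2.94-fold (2.60 to 3.33), and at 312 CPM against 109 CPM in cluster 3, 2.86-fold (2.42 to 3.38). Ddit4 was 1.96-fold (1.71 to 2.24) and 2.21-fold (1.80 to 2.72) higher there, Klf4 3.64-fold (2.58 to 5.26) and 3.02-fold (1.80 to 5.23), and Sult1a1 2.68-fold (2.17 to 3.33) and 2.30-fold (1.71 to 3.09). For these 4 genes the intervals of the 3 clusters overlapped.

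Other genes had less even point values over the clusters. Lifr was 2.21-fold (1.94 to 2.51) higher in cluster 0 and 1.54-fold (1.23 to 1.94) in cluster 3, with intervals that meet at their ends without overlapping. Acvr2b was 1.91-fold (1.54 to 2.38) in cluster 0 and 1.09-fold (0.727 to 1.61) in cluster 3, where its interval included 1, as did that of Phlpp2, 1.28-fold (0.843 to 1.95). Slc1a3 was 1.92-fold (1.75 to 2.11) in cluster 0, 1.67-fold (1.49 to 1.87) in cluster 2 and 1.498-fold (1.28 to 1.75) in cluster 3. Among the lower genes, Hivep1 was at 56.5 CPM against 34.4 CPM in cluster 3, 1.64-fold (1.17 to 2.31) higher in cKO IL-33, the opposite side from cluster 0. Of the IL-33 response genes, Ccl4 was 4.698-fold (1.86 to 15.2) higher in cKO IL-33 in cluster 2, on 42 UMIs against 5. In cluster 3 it was 6.31-fold (3.97 to 10.4) higher, whereas its interval in cluster 0 included 1. Ccl3 was 2.78-fold (2.08 to 3.74) higher in cluster 3, and its interval in cluster 2 included 1. The intervals of Tlr2, Tnf, Nfkbiz and Il1b included 1 in clusters 2 and 3, and those of Cd14 lay above 1. Differences between clusters were not tested.

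**Figure D5:**
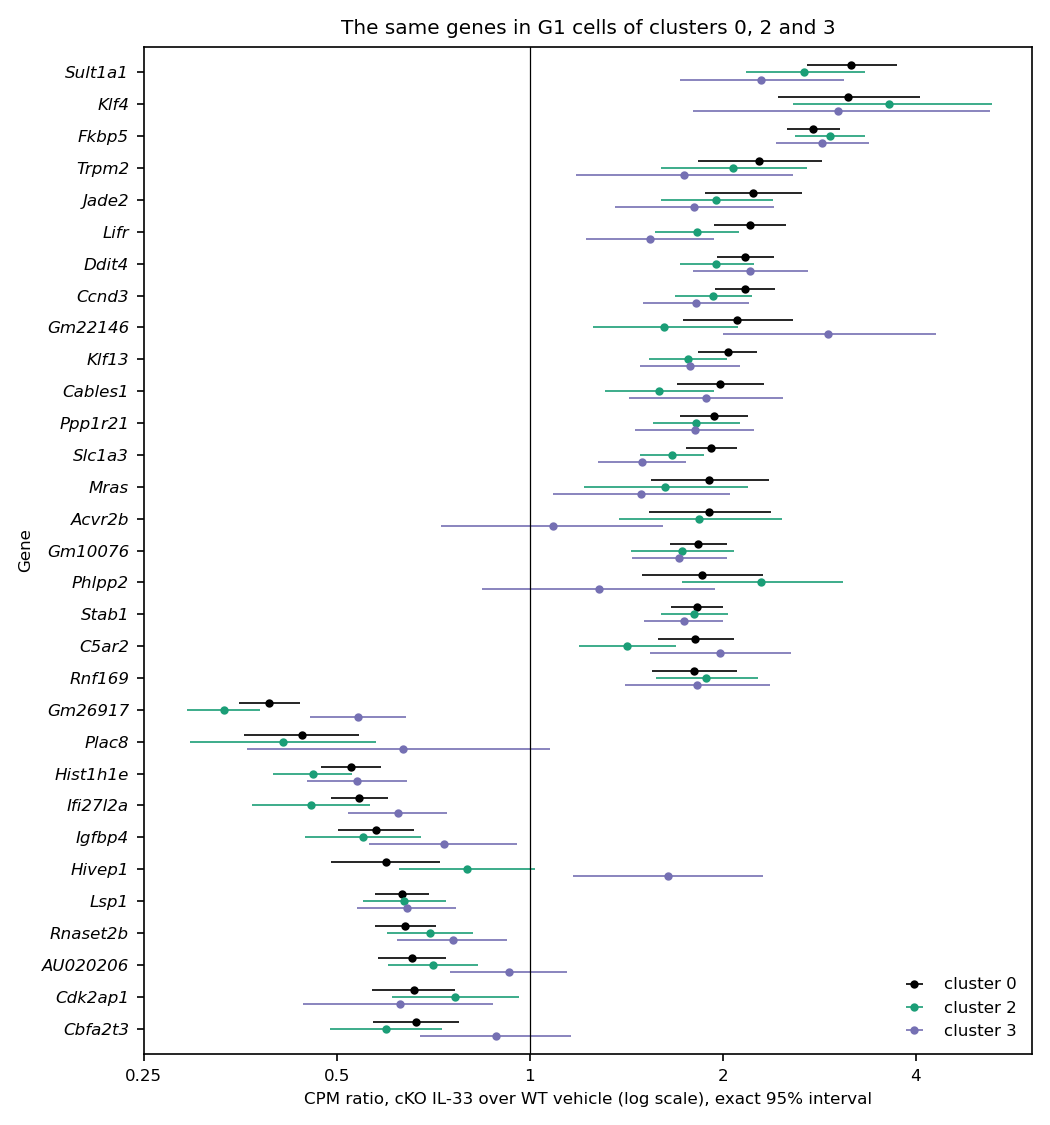
CPM ratio of cKO IL-33 over WT vehicle (log axis) for the 20 highest and 11 lowest genes of cluster 0, in G1 cells of clusters 0, 2 and 3, with exact 95% intervals. Fkbp5, Ddit4 and Klf4 sit close together in the 3 clusters, and Hivep1 lies on the other side of 1 in cluster 3.

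Because cKO IL-33 cells were nearly all female-called and WT vehicle cells nearly all male-called, the leading genes were read between the sexes inside the WT IL-33 library, in G1 cells of all clusters. Here 474 cells with Xist but no Y-linked UMIs are given as female-called and 392 cells with Y-linked but no Xist UMIs as male-called. There 140 of 3908 genes were at least 1.5-fold higher in female-called cells (3.58%) and 68 lower (1.74%). Fkbp5 was at 239 CPM in female-called and 104 CPM in male-called cells, 2.31-fold (1.95 to 2.73) higher in the former. Ddit4 was at 197 CPM in female-called and 45.9 CPM in male-called cells, 4.29-fold (3.40 to 5.48). Sgk1 was 2.34-fold (1.97 to 2.80) and Tsc22d3 1.82-fold (1.39 to 2.41) higher in female-called cells, Ccnd3 2.10-fold (1.59 to 2.80), Stab1 1.79-fold (1.48 to 2.17) and C5ar2 1.79-fold (1.35 to 2.38). Il1b was lower in them, at 782 CPM in female-called and 1891 CPM in male-called cells. Several leading genes thus had ratios above 1.5 by sex call within 1 library that had a single injection and genotype label. Its female-called and male-called cells come from animals of different sex, whose spread is unknown. The sexes were also spread differently over the clusters, as cluster 0 held 49 of the 474 female-called and 14 of the 392 male-called cells. By the deposited call the same cluster and phase held 54 female and 30 male WT IL-33 cells. Detection of Xist and Y-linked UMIs depends on depth, and its part in these numbers was not tested. Over all clusters, female-called cells were at 1191 CPM against 711 CPM in male-called cells for P2ry12 and at 1905 CPM against 5547 CPM in male-called cells for Ccl3, and the part of cluster makeup in the ratios above was not tested.

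Within cluster 0 the same reading of WT IL-33 rests on those 49 and 14 cells. Ddit4 was 3.31-fold (1.44 to 9.33) and Stab1 2.55-fold (1.01 to 8.24) higher in female-called cells. The intervals of the other leading genes named here included 1, with ratios of 1.55 (0.848 to 3.06) for Fkbp5, 1.58 (0.937 to 2.84) for Sgk1, 1.97 (0.585 to 10.4) for Tsc22d3, 1.53 (0.629 to 4.48) for C5ar2 and 1.26 (0.572 to 3.15) for Sult1a1. Point values below 1 were seen for Ccnd3, at 0.915 (0.453 to 2.002), Klf13, at 0.797 (0.411 to 1.64), Lifr, at 0.777 (0.331 to 2.03), and Cables1, at 0.634 (0.243 to 1.84). At this depth a difference by sex call within cluster 0 was not detectable for these 9 genes.

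Over all clusters, of the 20 highest genes 10 were at least 1.5-fold higher in female-called WT IL-33 cells and 0 lower, with ratios from 1.01 to 4.29 and a median of 1.54. No CPM minimum was applied to these 20, so the 3.58% of genes at 50 CPM or more is not their base rate. Acvr2b, for instance, was at 12.4 CPM in female-called and 6.47 CPM in male-called cells, with an interval that includes 1. Sult1a1, the first of them, was at 80.0 CPM in female-called and 59.9 CPM in male-called cells, 1.34-fold (1.05 to 1.71). Of all 58 higher genes, 39 reached 50 CPM in those cells and 7 of the 39 (17.9%) were at least 1.5-fold higher in female-called ones, which is 12.1% of the 58 and 5% of the 140. Of the 58, 50 had a ratio above 1, with a median of 1.33. The share above 1 over all genes of like level is not given here, so these counts are no result about the 58. A sex-matched reading of cluster 0 was possible only against WT IL-33. In its 14 cells of cluster 0 with Y-linked but no Xist UMIs, Fkbp5 was at 266 CPM against 126 CPM in the 780 vehicle cells without Xist UMIs, a ratio of 2.12 (1.12 to 3.65), and Ddit4 at 123 CPM against 115 CPM, a ratio of 1.07 (0.390 to 2.34). The 20 genes summed to 2601 CPM and 1425 CPM in those cells, a ratio of 1.82 (1.52 to 2.17). Between 909 female-called cKO IL-33 cells and 49 female-called WT IL-33 cells the sum was 3003 CPM against 3219 CPM, a ratio of 0.933 (0.856 to 1.02). Single genes in this sum departed from 1 in both directions. Lower in cKO IL-33 were Ddit4, at 0.614 (0.4802 to 0.797), and Ppp1r21, at 0.601 (0.444 to 0.833). So were Sult1a1, at 0.653 (0.463 to 0.9501), and C5ar2, at 0.656 (0.457 to 0.973). Higher were Gm10076, at 1.85 (1.19 to 3.04), and Acvr2b, at 8.29 (1.47 to 328), the latter on 1 WT IL-33 UMI. These 20 genes were chosen by their ratio between the cKO IL-33 and WT vehicle cells used again here. Both ratios of the sum therefore reuse the values that chose the genes, and their intervals do not cover that choice. How much of the difference between cKO IL-33 and WT vehicle goes with sex, with injection or with genotype cannot be told apart in these libraries.

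X-linked genes were outside the autosomal comparison, and the libraries differ in sex. Of 105 X-linked genes at 50 CPM or more, 8 were at least 1.5-fold higher in cKO IL-33 (7.62%) and 1 lower (0.952%). Xist, the RNA that silences an X chromosome, had 14758 UMIs against 6, and its antisense partner Tsix 1114 UMIs against 3, which cannot be told apart from Xist reads where strand is unknown. Jpx, a noncoding neighbour of Xist, was at 62.9 CPM against 27.5 CPM and Kdm5c, a demethylase gene known to escape silencing, at 55.5 CPM against 35.6 CPM. Named after their values were seen, Tlr7, a receptor for single-stranded RNA, was at 293 CPM in cKO IL-33, 169 CPM in WT vehicle and 250.4 CPM in WT IL-33, 1.73-fold (1.59 to 1.89) higher, and Rbm3, a cold-induced RNA-binding protein, was the 1 lower gene, at 375 CPM in cKO IL-33, 593 CPM in WT vehicle and 370.5 CPM in WT IL-33, 1.58-fold (1.49 to 1.68). Y-linked genes summed to 0.181, 261 and 113 CPM in cKO IL-33, WT vehicle and WT IL-33.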

How the data were processed

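The deposited table holds raw counts, UMIs per gene and cell, for 20586 genes and 7598 cells in 3 libraries. The counts are whole numbers and their sum equals the deposited UMI count in 100.0% of cells. Clusters, G1 calls, sex calls and the percent of mitochondrial and ribosomal UMIs are the authors' per the file headers. Seurat 4.0.1, Cell Ranger 5.0 and the build GRCm38 (mm10) appear without roles in the submitters' processing notes. Clusters were formed by the authors on all cells, so the genes compared also shaped them. Doublets were not called, and no UMI cut was set here.

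UMIs of cluster 0 cells in G1 were summed per library, and CPM were taken per 1000000 UMIs of 19591 autosomal genes (GENCODE positions on GRCm38, matched by symbol). For 368 genes without a position, 0.283% (cKO IL-33) and 0.253% (WT vehicle) of UMIs were left out. Ratios have exact conditional binomial (Clopper-Pearson) intervals, CPM exact Poisson and shares exact binomial (Clopper-Pearson) intervals. Log2 ratios used a pseudocount of 1 CPM. UMIs limit but do not exclude amplification effects, and no interval covers the spread between animals. Named genes are the 20 highest and 20 lowest log2 ratios past 1.5-fold whose interval excludes 1 (only 11 were lower), up to 4 members of each list with the largest ratio at 50 CPM or more, the receptor and its ligand, and the IL-33 response genes. The genes compared and the lists were chosen with earlier results of these data known. The steps were tested on simulated counts. Alternatives changed the cells, scaling, minimum, fold and pseudocount. Python 3.11.15, NumPy 2.4.6, SciPy 1.17.1, pandas 2.3.3 and edgeR 4.0.16 (TMM factor only) were used.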

Additional observations from a re-analysis of the deposited data

Results flagged for a closer look

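Hivep1, a zinc finger gene among the 11 lower genes of cluster 0, lay on opposite sides in clusters 0 and 3. Its log2 ratio of cKO IL-33 over WT vehicle was -0.73 in cluster 0 and 0.70 in cluster 3, at 32.5 CPM against 54.5 CPM and 56.5 CPM against 34.4 CPM. In cluster 2 it was at 46.4 CPM against 58.1 CPM. The difference between the clusters was not tested, and each rests on the same libraries.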

How the results depend on the processing

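The counts of 58 higher and 11 lower genes were recomputed under 16 alternatives, 2 of them chosen after the data were seen (cells with fewer than 2 UMIs of rare leukocyte markers, and cells of at most 8000 UMIs). The 20 highest genes stayed past 1.5-fold in the same direction in each of them, and the 11 lowest stayed below 1, with 7 to 11 past 1.5-fold. The 2-fold, 20 CPM and pseudocount settings leave these CPM ratios unchanged. Settings that change only the scaling or the totals multiply all ratios by a constant, too near 1 to move these genes across 1. The other settings reuse the libraries in which the genes were chosen. Higher and lower counts were 92 and 22 in cells of 2 to 3% mitochondrial UMIs, 244 and 109 without cells with 2 or more UMIs of other leukocyte markers (which left 221 and 161 cells), 163 and 31 with a minimum of 20 CPM, and 10 and 2 at 2-fold. Lower counts alone moved to 20 over all deposited cells, 18 in cells of 3000 to 6000 UMIs and 17 with totals free of ribosomal protein genes. The share of higher genes among those counted was 84.1%, but 73.7% over all deposited cells, 69.1% in the cells with fewer than 2 UMIs of other leukocyte markers and 74.1% with TMM scaling (43 higher, 15 lower), which shifted all log2 ratios by 0.0541. Of named gene values, 159 of 2432 moved beyond their counting interval, and 11 of 464 list medians moved. The 2432 include 152 values each for the 2-fold and 20 CPM settings, which could not move. Nor could the list medians of the 2-fold setting. None of the 20 highest and 11 lower genes changed sides, while 71 of 2432 named gene values (33 genes) and 22 of 464 list medians (12 lists) had the other sign. Among these were Ccl3, from 1.38 to -0.57, chemokines, from 0.41 to -0.03, and type I interferon genes, from -0.33 to 0.04, each in those cells with fewer than 2 such UMIs, and the cause was not tested. Each kept its sign in the 906 and 767 cells with fewer than 2 UMIs of rare leukocyte markers. The alternative with clusters of another resolution was not run, as the table used holds 1 resolution. No paired analysis was possible because each group had 1 library. Depth limits genes below 50 CPM, and the WT IL-33 values rest on 84 cells.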

Other observations

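Between 20 and 50 CPM, below the minimum of the comparison, further genes were at least 1.5-fold apart with an interval that excludes 1. Those given here were named after their values were seen. Gcnt2, a glycosyltransferase, was at 21.1 CPM in cKO IL-33, 4.58 CPM in WT vehicle and 24.0 CPM in WT IL-33, 4.61-fold (2.88 to 7.73). Pik3ip1, an inhibitor of PI3K, was at 46.4 CPM in cKO IL-33, 10.9 CPM in WT vehicle and 6.86 CPM in WT IL-33, 4.26-fold (3.13 to 5.88), and it was not high in WT IL-33. Rcan1, an inhibitor of calcineurin, was at 33.4 CPM in cKO IL-33, 10.04 CPM in WT vehicle and 58.3 CPM in WT IL-33, 3.33-fold (2.40 to 4.71). Socs3, a feedback inhibitor of cytokine receptors, was at 37.4 CPM in cKO IL-33, 15.3 CPM in WT vehicle and 130.3 CPM in WT IL-33, 2.45-fold (1.86 to 3.26), and C5ar1, the main receptor for C5a, at 46.4 CPM in cKO IL-33, 22.0 CPM in WT vehicle and 141 CPM in WT IL-33, 2.11-fold (1.67 to 2.68). Kitl, the ligand of the receptor Kit, was at 27.3 CPM against 8.73 CPM and Jdp2, a repressor of AP-1, at 34.9 CPM against 12.4 CPM. Arrdc3, an arrestin-related gene, was lower in cKO IL-33, at 23.1 CPM against 44.1 CPM, as was Nid2, a basement membrane protein gene, at 23.1 CPM against 43.2 CPM.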
